A study of Arabidopsis thaliana with 6 samples.

Results

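The 9 genes described here act late in the life of a xylem cell. They were taken by locus from 27628 identifiers of a deposited count table of Arabidopsis thaliana siliques, the seed pods. Of these, 5 are wall assembly genes: FLA11 (AT5G03170), FLA12 (AT5G60490), COBL4 (AT5G15630), CTL2 (AT3G16920) and TBL29 (AT3G55990). The other 4 act in cell death: XCP1 (AT4G35350), XCP2 (AT1G20850), MC9 (AT5G04200) and BFN1 (AT1G11190). All 9 loci were in the table and all 9 passed the filter on low counts, in a comparison of 20827 genes. The loci were listed by gene function, with earlier results of these data known.

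The series compared siliques of wild type (WT) with siliques labelled shp1 shp2 mrpl1, with 3 libraries of each genotype. SHP1 and SHP2 are MADS-box factors of the fruit valve margin, and the third name stands for a mitochondrial ribosomal protein gene. Plants of both groups were grown on Murashige and Skoog medium with sucrose, in long days; no treatment, age or silique stage is given in the labels. The labels do not name the alleles, and they do not say whether the libraries of a group came from separate plants, so the p-values measure the spread between these libraries, which may be technical.

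Vessels and fibres thicken their walls inside the first wall with cellulose, xylan and lignin. Surface glycoproteins, chitinase-like proteins and xylan acetylation are needed for that wall to assemble and bear load. A vessel then dies on schedule, and proteases and nucleases held in its vacuole and elsewhere clear the cell contents so that water can pass. In a silique such cells lie in the vascular bundles, while lignified cells without a vessel's function also line the valve and its margin. Proteases and nucleases of the same families act in other dying tissues, among them seed coat layers and endosperm.

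Of the genes named in the genotype, only SHP1 was called lower in the libraries carrying that label (log2 fold change −0.51; edgeR adjusted p = 0.00242), at 37.5 to 43.5 CPM (counts scaled to a common library size with TMM) in WT and 26.9 to 31.5 CPM in the labelled mutant. SHP2 spanned 104 to 110 CPM in WT and 102 to 110 CPM in the labelled mutant, and AT2G42710, a ribosomal protein L1 family gene taken as MRPL1, spanned 12.9 to 15.4 and 16.3 to 18.3 CPM. SHP2 overlaps a gene on the other strand by 1756 bases, and SHP1 overlaps 2 such genes by up to 564 bases. The strand setting is not given, and how far reads of those genes enter the SHP1 and SHP2 counts was not tested. Directions below are therefore between libraries as labelled. Library totals lay between 17857859 and 21603809 estimated counts. Replicate 1 stood apart in each group: a chi-square of its counts, per degree of freedom, came to 11.5 and 11.6 for WT replicate 1 against its mates and 2.49 for the other pair. In the labelled mutant the same values were 8.79 and 7.4, and 2.81. Longer transcripts tended to lower log2 fold changes (Spearman's rho −0.25 over genes, and −0.45 without both libraries numbered 1, a description only). With a correction for length, the 9 genes gave 6 lower and 1 higher calls. That fit called 1545 of all tested genes lower and 1748 higher, against 847 and 1018 in the main fit. Fruit markers were present: FUL, IND, ALC, RPL, ADPG1 and STK together summed to between 391 and 412 CPM in WT and between 392 and 452 CPM in the labelled mutant. FUL was called lower (−0.30; edgeR adjusted p = 0.0477) and the other 5 were not called. The FUL call was lost with upper-quartile scaling, library totals, the DESeq2 test and the replicate number as a block. It was also lost without WT replicate 1, 2 or 3 or labelled mutant replicate 1 or 3. Without both libraries numbered 1, 3 of the 6 were called higher, in a fit that called 3191 of all tested genes higher. ALC shared 59.25% of its 50-base windows with a gene on the other strand, so its count is uncertain.

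The 250 bases before the annotated transcript start are shown for 5 of the 9 genes. XCP1, MC9 and FLA11 are shown because they hold TERE, the tracheary element element known from genes switched on in differentiating vessels. FLA12 is shown as the near relative of FLA11, and BFN1 as the gene with the opposite direction. Sequences and positions are from TAIR10.1 (RefSeq), each read 5′ to 3′ on the gene's strand and ending next to the transcript start. The build behind the deposited counts is not given in the sources used here. Capitals mark TERE (CTTNAAAGCNA) and SMRE, the MYB46 and MYB83 response element (ACCNANN with A or T at the first N, A or C at the second and C or T at the last), searched on both strands. No TERE match overlapped an SMRE match in these windows.
XCP1, chr4:16810232-16810481, plus strand: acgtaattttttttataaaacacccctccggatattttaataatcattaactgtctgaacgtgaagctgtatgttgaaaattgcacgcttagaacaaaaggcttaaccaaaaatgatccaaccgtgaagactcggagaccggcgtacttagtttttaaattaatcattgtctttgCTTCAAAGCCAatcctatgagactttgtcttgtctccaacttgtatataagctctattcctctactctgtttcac
MC9, chr5:1153490-1153739, plus strand: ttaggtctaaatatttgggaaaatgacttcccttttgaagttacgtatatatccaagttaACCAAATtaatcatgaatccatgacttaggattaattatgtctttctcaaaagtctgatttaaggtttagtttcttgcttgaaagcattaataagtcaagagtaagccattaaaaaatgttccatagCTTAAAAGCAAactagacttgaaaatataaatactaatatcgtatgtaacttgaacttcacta
FLA11, chr5:753658-753907, minus strand: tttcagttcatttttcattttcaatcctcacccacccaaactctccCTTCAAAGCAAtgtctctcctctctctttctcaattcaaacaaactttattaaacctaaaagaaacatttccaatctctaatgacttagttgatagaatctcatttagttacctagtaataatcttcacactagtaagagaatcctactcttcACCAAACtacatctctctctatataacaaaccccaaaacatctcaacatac
FLA12, chr5:24326828-24327077, minus strand: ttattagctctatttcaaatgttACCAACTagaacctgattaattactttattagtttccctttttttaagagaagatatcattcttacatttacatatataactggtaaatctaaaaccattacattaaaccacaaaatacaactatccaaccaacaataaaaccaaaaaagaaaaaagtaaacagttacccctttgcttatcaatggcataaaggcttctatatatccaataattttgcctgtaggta
BFN1, chr1:3752781-3753030, minus strand: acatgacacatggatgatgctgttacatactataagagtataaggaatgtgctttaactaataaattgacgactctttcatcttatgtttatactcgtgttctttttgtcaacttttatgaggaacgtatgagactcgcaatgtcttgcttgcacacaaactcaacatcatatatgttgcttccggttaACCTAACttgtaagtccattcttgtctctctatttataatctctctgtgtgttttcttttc

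TERE lay at −75 to −65 in XCP1, −63 to −53 in MC9 and −204 to −194 in FLA11, counted from the base before the transcript start as −1. These 3 of 9 windows compare with 96 of 27418 windows of the same length before transcripts of the table, or 0.350%. TERE is known from vessel genes and the 9 were listed for xylem function, so the comparison is a description and not a test. SMRE was in 4 of the 9 windows (FLA11, FLA12, MC9 and BFN1) and in 29.3% of all. COBL4, CTL2, TBL29 and XCP2 had neither set of letters in this window. Of the TERE genes, XCP1 and FLA11 fell in the labelled mutant and MC9 was not called, as described below. With only 3 such genes, a link between a match and direction cannot be judged.

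**Figure D1:**
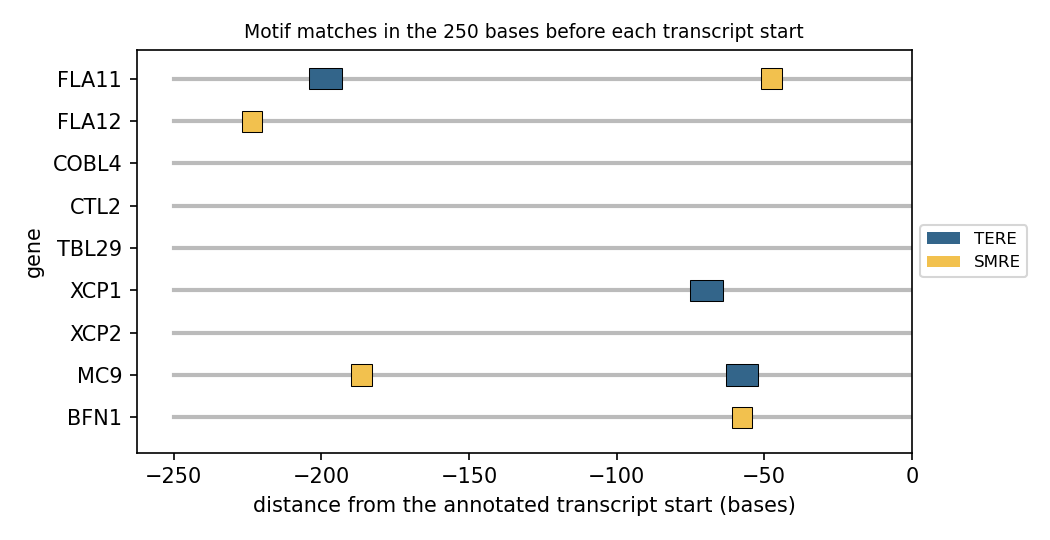
Positions of TERE (blue) and SMRE (yellow) matches in the 250 bases before the transcript start of each of the 9 genes, with distance from the start in bases on the x axis. TERE is in FLA11, XCP1 and MC9, and 4 genes have neither motif.

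COBL4, XCP2, XCP1, CTL2, TBL29 and FLA11 fell to between 62.2% and 69.5% of the WT level in the labelled mutant. BFN1 rose to 135% of it, and FLA12 and MC9 were not called. Thus 6 of 9 were called lower, against 4.07% of all 20827 tested genes, and 1 of 9 was called higher, against 4.89% (edgeR's quasi-likelihood test, Benjamini-Hochberg adjusted p under 0.05 over all tested genes). Their median log2 fold change was −0.55, beside −0.0016 for all tested genes. Every labelled mutant library lay below every WT library for 7 of the 9, FLA12 included, as for 12.3% of tested genes, and above every WT library for 1, as for 13.7%. In whole siliques, fewer cells of a type and less RNA per cell cannot be told apart.

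**Figure D2:**
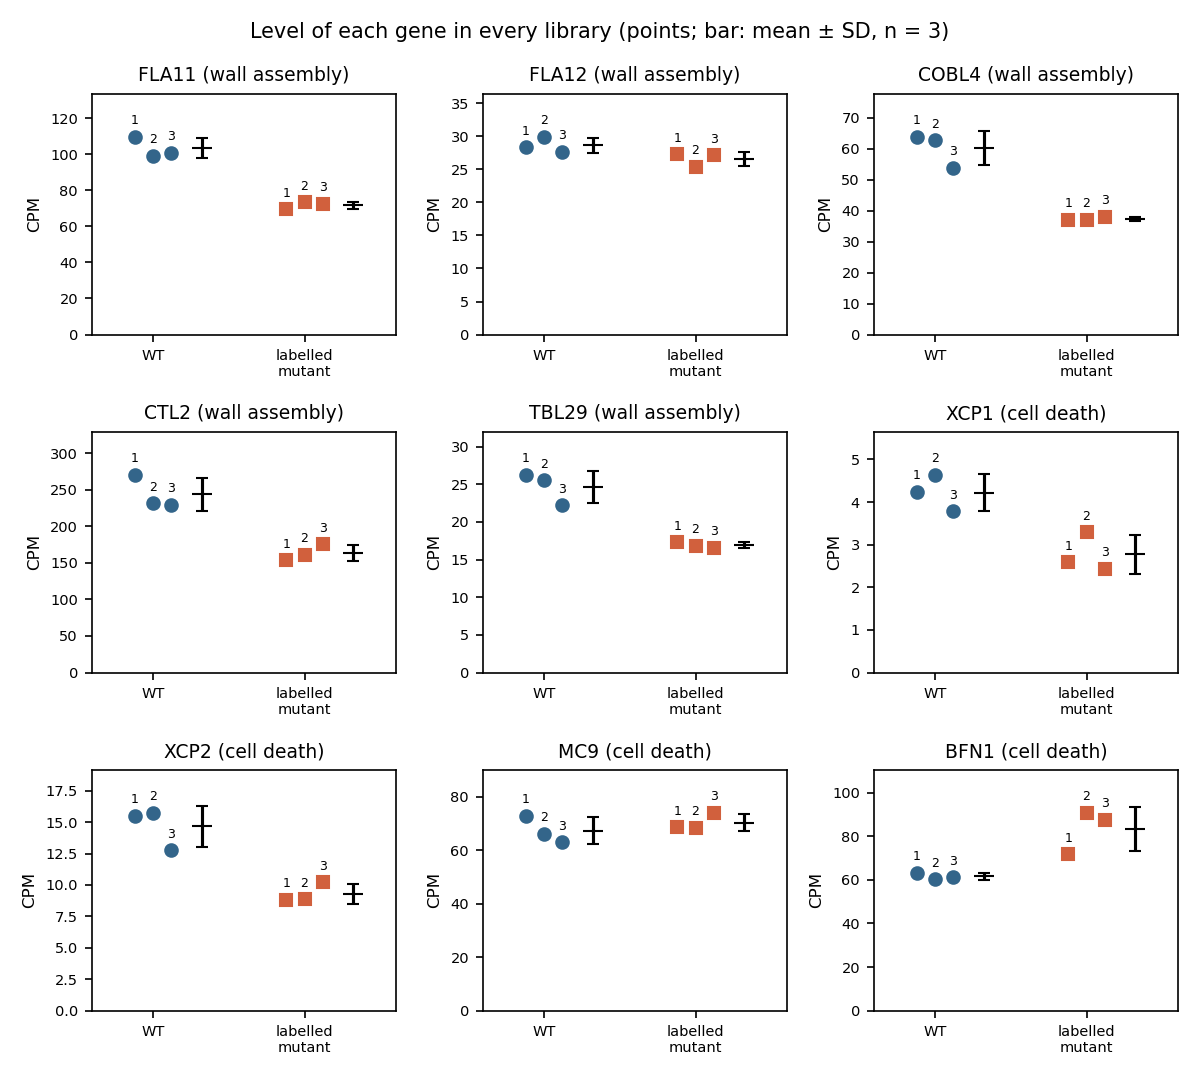
CPM of each gene (y axis, from 0) in the 3 WT libraries (blue circles) and the 3 labelled mutant libraries (orange squares), numbered by replicate, with black bars for mean ± SD. COBL4, CTL2, TBL29, FLA11, XCP1 and XCP2 are lower in every labelled mutant library, MC9 overlaps, and BFN1 is higher.

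CTL2 encodes a chitinase-like protein of cellulose assembly in secondary walls. In TAIR10.1 it spans chr3:5776264-5778052, minus strand, in 3 exons. It stood at 270, 231 and 229 CPM in WT replicates 1 to 3 and at 153, 161 and 176 CPM in labelled mutant replicates 1 to 3. The groups were well apart although WT replicate 1 was high. The log2 fold change was −0.58 (SE 0.079; edgeR adjusted p = 0.000492), and −0.45 without both libraries numbered 1 (edgeR adjusted p = 4.06e-11). The latter fit had fewer libraries and called 3301 of all tested genes lower, against 847 in the main fit. Its smaller p is therefore not read as stronger evidence.

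COBL4, listed as IRX6 in the reference, encodes a COBRA-like protein anchored at the cell surface that is needed for cellulose of xylem walls. It spans chr5:5084524-5086811, plus strand, in 6 exons. Its level was 63.8, 62.6 and 53.8 CPM in WT and 37.0, 37.0 and 38.0 CPM in the labelled mutant. The labelled mutant libraries lay within about 1 CPM of each other, and WT replicate 3 was the lowest of its group. The difference was −0.69 on the log2 scale (SE 0.081; edgeR adjusted p = 0.000175).

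TBL29, listed as ESK1, encodes an acetyltransferase that decorates xylan, and its loss collapses vessels. The gene spans chr3:20780175-20783233, plus strand, in 5 exons. WT libraries had 26.2, 25.6 and 22.2 CPM, and labelled mutant libraries 17.3, 16.8 and 16.6 CPM. No library of one group reached the other. The log2 fold change was −0.55 (SE 0.090; edgeR adjusted p = 0.00178).

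FLA11 and FLA12 encode fasciclin-like arabinogalactan proteins, surface glycoproteins of stem fibres and vessels that affect stem strength. Both are single-exon genes on the minus strand, FLA11 at chr5:752750-753657 and FLA12 at chr5:24325457-24326827. FLA11 went from 110, 99.4 and 101 CPM in WT to 69.6, 73.4 and 72.5 CPM in the labelled mutant, with wide separation. Its log2 fold change was −0.53 (SE 0.069; edgeR adjusted p = 0.00038). FLA12 stood at 28.3, 29.9 and 27.7 CPM in WT and 27.3, 25.4 and 27.2 CPM in the labelled mutant, so that the groups nearly touched. Its log2 fold change of −0.11 was not called (edgeR adjusted p = 0.478), with a 95% interval from −0.27 to 0.06.

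The ratio of FLA11 to FLA12 within a library, which no scaling between libraries can alter, was 3.87, 3.32 and 3.65 in WT and 2.55, 2.89 and 2.67 in the labelled mutant. It was lower in 3 of 3 labelled mutant libraries, a difference of −0.42 in log2 ratio with an exact two-sided permutation p = 0.1, the smallest that 20 assignments allow (adjusted p = 0.117 over 7 ratios, by exact permutation). The 7 ratios were chosen after the values were seen. FLA11 overlaps a gene on the other strand by 56 bases and shared 0.815% of its 50-base windows with it. FLA12 had no overlap and no shared window.

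XCP1 and XCP2 encode papain-like cysteine proteases that sit in the vacuole of vessels and digest the cell after it dies. XCP2 (chr1:7252111-7253747) and XCP1 (chr4:16810482-16812077) each have 4 exons and lie on the plus strand. XCP2 had 15.5, 15.7 and 12.8 CPM in WT and 8.83, 8.87 and 10.2 CPM in the labelled mutant. The groups did not overlap, and the log2 fold change was −0.66 (SE 0.114; edgeR adjusted p = 0.00266). XCP1, the least abundant of the 9, had 87, 99 and 75 estimated counts in WT and 54, 60 and 51 in the labelled mutant. In CPM these were 4.24, 4.64 and 3.79 against 2.59, 3.29 and 2.44, again without overlap.

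The XCP1 log2 fold change was −0.62 (SE 0.173; edgeR adjusted p = 0.0432). Its call was lost without WT replicate 2 (−0.54; edgeR adjusted p = 0.164), WT replicate 3 (−0.69; edgeR adjusted p = 0.0694), labelled mutant replicate 1 (−0.57; edgeR adjusted p = 0.0874) or labelled mutant replicate 3 (−0.53; edgeR adjusted p = 0.197). It was lost as well with DESeq2 (adjusted p = 0.0988) and with library totals (edgeR adjusted p = 0.0588). The ratio of XCP2 to XCP1 was 3.47 ± 0.157 in WT and 3.43 ± 0.748 in the labelled mutant (SD, n = 3 each; exact permutation p = 0.9, two-sided, 20 assignments).

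MC9 encodes a metacaspase, a protease that is known to act inside dying vessels after the vacuole bursts. It is a single-exon gene at chr5:1153740-1155040, plus strand. Levels were 72.9, 66.2 and 63.0 CPM in WT and 68.6, 68.4 and 74.0 CPM in the labelled mutant, and the groups overlapped. The log2 fold change was 0.06 (SE 0.077; edgeR adjusted p = 0.696), with a 95% interval from −0.10 to 0.23.

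BFN1 encodes a nuclease that cuts both RNA and DNA and marks senescence and developmental cell death. It spans chr1:3750066-3752780, minus strand, in 9 exons. It stood at 63.4, 60.3 and 61.3 CPM in WT and at 71.7, 90.8 and 87.8 CPM in the labelled mutant, where replicate 1 was nearest to WT. The log2 fold change was 0.44 (SE 0.088; edgeR adjusted p = 0.0073). It was 0.55 without both libraries numbered 1 (edgeR adjusted p = 1.38e-12). That fit called 3191 of all tested genes higher, against 1018 in the main fit, so its smaller p is not read as stronger evidence. The log2 fold change was 0.40 without labelled mutant replicate 3, where the call was lost (edgeR adjusted p = 0.0572). With the replicate number as a block the call was lost too (edgeR adjusted p = 0.0665).

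Ratios between cell death genes were also taken within each library. BFN1 stood 4.24 ± 0.502 times as high as XCP2 in WT and 8.98 ± 1.11 times as high in the labelled mutant, and MC9 stood 4.62 ± 0.37 and 7.57 ± 0.294 times as high (CPM ratio within a library, SD, n = 3 each). Both ratios were higher in 3 of 3 labelled mutant libraries, by 1.08 and 0.72 in log2 ratio, each with an exact two-sided permutation p = 0.1, the smallest possible (adjusted p = 0.117), so neither passed. The ratio of XCP2 to XCP1, given above, overlapped between groups.

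**Figure D3:**
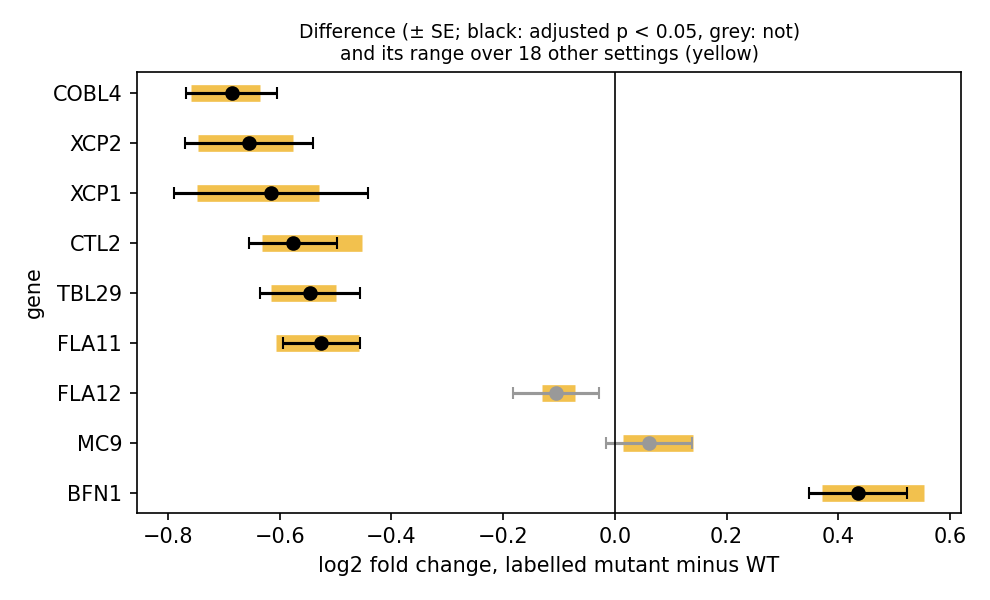
Log2 fold change of each of the 9 genes (x axis, points) ± SE, with yellow bars for the range over 18 other settings. COBL4, XCP2, XCP1, CTL2, TBL29 and FLA11 stay below 0 and BFN1 above 0 in every setting, while FLA12 and MC9 (grey) lie near 0.

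Set per kilobase of transcript, levels in WT ran from CTL2 (151 ± 14.3 CPM per kb) and FLA11 (114 ± 6.10) through MC9 (51.8 ± 3.88), BFN1 (48.4 ± 1.24), COBL4 (31.9 ± 2.92) and FLA12 (20.9 ± 0.844) to TBL29 (12.3 ± 1.08), XCP2 (10.7 ± 1.20) and XCP1 (3.21 ± 0.323; SD, n = 3 each). Among neighbours in that order, the libraries of MC9 and BFN1 overlapped, as did those of TBL29 and XCP2. In the labelled mutant BFN1 (65.5 ± 8.05 CPM per kb) came before MC9 (54.1 ± 2.43), with overlapping libraries, and COBL4 (19.9 ± 0.305) overlapped FLA12 (19.4 ± 0.763). The remaining order was the same in both groups.

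Libraries within a group also differed slightly in ways most of these genes shared. The same shares over all tested genes were not taken, so this may not be particular to them. In WT replicate 3 all 9 genes lay below their WT mean, by a median of 0.094 on the log2 scale, while in WT replicate 1 all but FLA12 lay above it, by a median of 0.087. In the labelled mutant replicate 3 was above the group mean for 7 of 9 genes, by a median of 0.029. The widest departure was that of XCP1 in labelled mutant replicate 2, at 0.26 above its group mean. Without both libraries numbered 1, the same counts were reached, 6 lower and 1 higher, with a median log2 fold change of −0.46. That fit called 3301 of all tested genes lower and 3191 higher, against 847 and 1018 in the main fit, so equal counts are not equal evidence.

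Relatives and partners of the 9 genes, listed by locus, divided along other lines. Of 113 such genes 98 were tested, and 14 rose, 14 fell and 70 were not called, with a median log2 fold change of 0.02. Over all tested genes the main fit called 4.89% higher and 4.07% lower, the shares to set beside this count and its list counts below. Those shares do not hold in other settings, where list counts belong beside other totals. Without both libraries numbered 1, 3191 genes were called higher and 3301 lower, against 1018 and 847 in the main fit. With the length correction 1748 were called higher and 1545 lower. Of the partners in secondary wall cellulose 6 of 9 fell, with a median of −0.66: the cellulose synthase genes CESA4, CESA7 (listed as IRX3) and CESA8 (listed as IRX1), the glucuronoxylan genes IRX15 and IRX15L, and MAP70-5, for a microtubule protein that shapes wall bands. CESA4 went from 242 ± 19.9 to 137 ± 12.4 CPM (−0.82; edgeR adjusted p = 4.21e-05). CESA8 shared 13.1% of its 50-base windows with a gene on the other strand, a limit on its count. The cellulase gene KOR1 (listed as GH9A1), at 371 ± 11.7 and 371 ± 17.8 CPM, CSI1 (−0.11), which links cellulose synthase to microtubules, and MIDD1 (listed as RIP3; −0.01), which shapes wall pits, were not called.

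Among the other fasciclin-like genes 15 of 19 were tested, and 5 rose and 0 fell (median 0.12; edgeR; 0 falls also before adjustment at a p under 0.05 and with DESeq2). Without both libraries numbered 1 a single gene was called lower, and the rises numbered 3 without labelled mutant replicate 3 and with the replicate block. FLA13 went from 18.8 ± 1.5 to 28.9 ± 2.32 CPM (0.63; edgeR adjusted p = 0.000828). FLA5 rose as well, 35 ± 2.96 CPM becoming 48.5 ± 2.50 CPM (0.47; edgeR adjusted p = 0.00268), and FLA3 changed from 1.84 ± 0.20 to 3.62 ± 0.228 CPM (0.97; edgeR adjusted p = 0.00391). FLA3 shared 96.3% of its windows with a gene on the other strand, so its count is uncertain. FLA10 and FLA2 rose by log2 fold changes of 0.34 and 0.38. FLA6, FLA14, FLA20 and FLA21 were too low to test, at 0 to 3 estimated counts in any library.

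Relatives of COBL4 and CTL2 that serve growing walls were not called. COB, which orients cellulose in expanding cells, stood at 0.13 on the log2 scale (edgeR adjusted p = 0.481) and CTL1 (listed as POM1) at 0.11 (edgeR adjusted p = 0.322). Accordingly the ratio of COBL4 to COB was 0.928 ± 0.196 in WT and 0.520 ± 0.0376 in the labelled mutant, and that of CTL2 to CTL1 was 0.295 ± 0.0225 and 0.184 ± 0.00771 (SD, n = 3 each; exact permutation p = 0.1 for each, the smallest possible). Of the 8 tested genes of this list COBL6 and COBL10 rose (0.53 and 1.00) and COBL8 fell (−0.57). COBL10 was scarce in WT, at 0.829 ± 0.0797 CPM (edgeR adjusted p = 0.0445). Rises of this list numbered 1 without WT replicate 1, 2 or 3 or without labelled mutant replicate 1 or 3, 0 with the replicate block and up to 4 over all settings. Among 13 genes of xylan acetylation, TBL33 fell from 22.9 ± 1.35 to 15.7 ± 0.871 CPM (−0.54; edgeR adjusted p = 0.0017); without both libraries numbered 1 the list had 3 falls. The other 12 were not called, TBL3 at −0.29 and the RWA1 to RWA4 genes, which supply the acetyl donor, between −0.16 and −0.02. The ratio of TBL29 to TBL3 was 2.30 ± 0.0721 in WT and 1.93 ± 0.0586 in the labelled mutant (SD, n = 3 each). This was a difference of −0.25 in log2 ratio (exact permutation p = 0.1, the smallest possible).

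Proteases and nucleases outside the 9 were mostly not called, as were most tested genes. For papain-like proteases 18 were tested, and CEP1, active in tapetum and other dying cells, rose from 323 ± 13.6 to 421 ± 10.3 CPM (0.38; edgeR adjusted p = 0.00124). RD19A (listed as RD19) rose by a log2 fold change of 0.22, and the senescence protease gene SAG12 fell from 934 ± 70.4 to 767 ± 27.2 CPM (−0.28; edgeR adjusted p = 0.0149). Rises of this list numbered 1 without WT replicate 2 or 3 or labelled mutant replicate 2 or 3, and 4 without both libraries numbered 1. Falls numbered 0 without labelled mutant replicate 2 and with the replicate block. Among metacaspases 0 of 6 tested were called in the edgeR fit. Before adjustment 0 had a p under 0.05, and DESeq2 called 0; without both libraries numbered 1 a single one was called lower. Of 7 nucleases RNS1 rose (0.30; edgeR adjusted p = 0.0389) and RNS3 did not pass (0.13); no nuclease was called higher in 6 of 18 other settings, among them those without WT replicate 2 or 3 or labelled mutant replicate 2 or 3. The protease inhibitor genes SERPIN1 and CYS6 (listed as CYSB) were not called, at 0.08 and 0.10.

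Of 6 genes that, like BFN1, mark developmental cell death in many tissues, 3 rose, 0 fell and 3 were not called, with a median log2 fold change of 0.32. AT4G04460, annotated as a saposin-like aspartyl protease, went from 364 ± 11.8 to 564 ± 11.8 CPM (0.63; edgeR adjusted p = 2.13e-05). It shared 9.23% of its 50-base windows with a gene on the other strand. The carboxypeptidase-like gene SCPL48 went from 271 ± 5.09 to 355 ± 5.42 CPM (0.39; edgeR adjusted p = 0.000753). CEP1, counted above, is the third. Those not called were RNS3 (0.13), AT4G18425 (0.26) and AT2G14095 (0.00). Over all settings 3 to 5 genes of this list were called higher and 0 lower, and 0 fell at an unadjusted p under 0.05 or with DESeq2.

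Regulators of xylem and of secondary walls were often near the lower limit of counting. VND6 and VND7, master switches of vessels, had 1 to 6 and 2 to 8 estimated counts per library and were not tested, and no direction was detectable at this depth. VND3, VND4 and VND5 were scarce and not called (edgeR adjusted p = 0.246, 0.344 and 0.316). Their log2 fold changes were −0.82, −0.62 and −0.48. Of 16 tested regulators 5 fell and 2 rose. Falls numbered 3 without labelled mutant replicate 2 and with the replicate block, and 8 with the length correction. MYB103 fell by 0.88 on the log2 scale, NST3 (listed as NAC012) by 0.87, NST2 (listed as NAC066) by 0.86, SND2 (listed as NAC073) by 0.74 and NST1 by 0.56. LBD18 (0.71; edgeR adjusted p = 0.0004) and LBD30 (listed as JLO; 0.43; edgeR adjusted p = 0.0017), which act in vessel differentiation, rose.

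**Figure D4:**
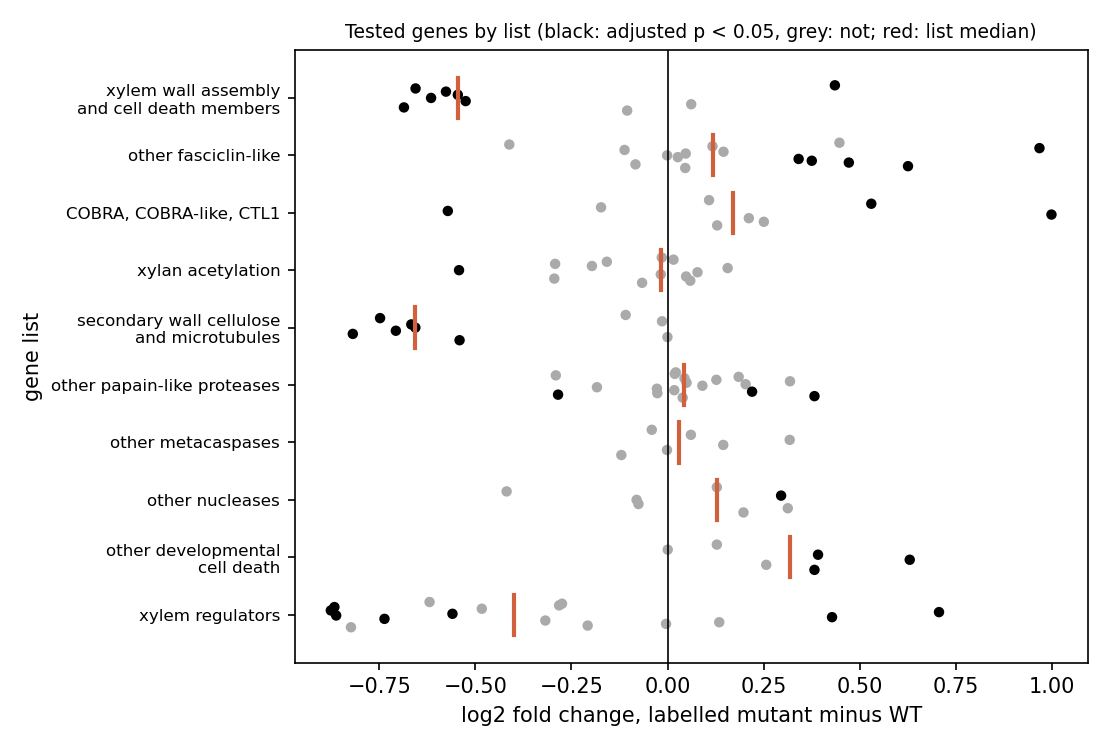
Log2 fold changes (x axis) of tested genes by list (y axis); black points passed the adjusted threshold, grey points did not, and red bars are list medians. Medians lie at −0.55 for the 9 genes, −0.66 for secondary wall cellulose and microtubules, 0.12 for other fasciclin-like genes and 0.32 for other developmental cell death genes.

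Markers of other cell types moved with the same label, and their part in the results above was not tested. Phloem genes, which share the vascular bundles with xylem, summed to 352 to 372 CPM in WT and 290 to 306 CPM in the labelled mutant. Of 5 such genes APL, PP2-A1, SEOR2 (listed as SEOa) and SUC2 fell, while 1 did without WT replicate 2 or 3 or labelled mutant replicate 2, 2 without labelled mutant replicate 3 and 0 with the replicate block. PP2-A1 shared 16.0% of its 50-base windows with a gene on the other strand. The endosperm genes ZOU (listed as RGE1) and ALE1 rose (0.63 and 0.86), PHE1 fell (−1.14) and FWA was not called; the 4 summed to 38.6 to 43.4 CPM in WT and 55.7 to 65.0 CPM in the labelled mutant. Seed coat genes summed to 443 to 478 and 526 to 552 CPM, with MUM2 and MUM4 higher among 5. A single one was called without WT replicate 2 or 3 or labelled mutant replicate 1 or 2, and 0 with the replicate block. Embryo and storage genes summed to 95790 to 99120 CPM in WT and 69970 to 76790 CPM in the labelled mutant, with 4 of 7 lower and 1 higher (2 lower with the replicate block; the call of a higher gene, LEC1, was lost without WT replicate 2 or 3 or labelled mutant replicate 2 or 3). Senescence genes summed to 1219 to 1402 and 1068 to 1170 CPM, with SAG12 the 1 of 5 that fell, a call with the limits given above. Anther and pollen genes were scarce, at 8.24 to 10.95 and 13.3 to 17.1 CPM in sum, with VGD1 higher among 3 tested and ATA7 (listed as A7) at 0 in every library.

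Outside the lists, the genes closest to the mean centred profile of the 5 wall assembly genes over the 6 libraries were CT-BMY, a chloroplast beta-amylase, AT3G59845, annotated as a zinc-binding dehydrogenase, SAHH2, for recycling of the methyl donor's by-product, HCT, of the monolignol branch, and IPMI1, an isopropylmalate isomerase. Their root-mean-square differences from that profile were 0.020 to 0.035 on the log2 scale, among 18151 genes whose average log2 CPM reached 1. HCT went from 306 ± 14.7 to 224 ± 8.42 CPM and CT-BMY from 80.7 ± 5.44 to 57.8 ± 1.35 CPM. The mean profile of the 4 cell death genes averaged genes of opposite direction and differed between groups by only −0.19. Its nearest genes, AT5G50990, NPR1, AT4G27340, NF-YA7 and AT2G41230, were not called (edgeR adjusted p between 0.163 and 0.516).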

How the data were processed

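RNA from siliques was sequenced in 3 WT libraries and 3 labelled shp1 shp2 mrpl1, grouped by the genotype label and numbered by the titles. The deposited table holds estimated counts for 27628 transcript identifiers, 1 per locus. Tools in the submitters' processing notes are featureCounts 1.6.3, HISAT2, DESeq2, Trimmomatic 0.39 and FastQC 0.11.9, with no roles. The genome build, annotation and strand setting are not given in the sources used here. Per library, 2.95% to 3.47% of values were not whole , none of them in the 9 genes, and counts were rounded.

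The labelled mutant was compared with WT in edgeR 4.0.16 (R 4.3.3): TMM scaling, expression filter (minimum count 10, minimum total 15), robust quasi-likelihood test, Benjamini-Hochberg adjusted p under 0.05. SE is the log2 fold change over the square root of F, and 95% intervals use the test's t distribution. CPM is edgeR's, after TMM. The fit was tested on simulated data, drawn without the departure of replicate 1 or the trend with length, so that run does not bear on either. Identifiers were matched to TAIR10.1 (27419 of 27628). The table has 1 transcript per gene, so lengths are those of that transcript.

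The 9 genes and all lists were chosen with earlier results of these data known. Besides the 9 and the genotype genes, the rule named up to 3 genes per list by smallest adjusted p, close relatives by role, and the 5 nearest profiles of each role; further list members are named to complete a count a choice made with their values in view. Alternatives were DESeq2 1.42.0 size factors and test, upper-quartile scaling, library totals, limma 3.58.1 voom with quality weights, other filters, the replicate block, a length correction, rounding down, and leaving out each library or both numbered 1. Whether replicate numbers pair the samples could not be settled.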

Additional observations from a re-analysis of the deposited data

How the results depend on the processing

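Directions of all 9 genes were the same in each of the 18 other settings. FLA11, COBL4, CTL2, TBL29 and XCP2 kept their calls in all of them, and FLA12 and MC9 were never called. XCP1 lost its call in 7 of 18 and BFN1 in 2 of 18, as given above, XCP1 also with the replicate block (edgeR adjusted p = 0.104). The cause was not tested. Of the 9 genes, 5 to 6 were called lower and 0 to 1 higher over all settings; leaving out each library in turn gave 5 to 6 and 0 to 1, the 0 without labelled mutant replicate 3. The median of the 9 ranged from −0.62 to −0.46. Over all tested genes, 1018 were called higher and 847 lower, against 2137 and 1986 with limma voom, 1748 and 1545 with the length correction, and 3191 and 3301 without both libraries numbered 1. Leaving out each library in turn gave 578 to 1534 higher (lowest without labelled mutant replicate 3, highest without WT replicate 1) and 426 to 1468 lower. Library totals gave 1252 higher and 671 lower.

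Deviations of same-numbered libraries from their group means correlated at −0.364, −0.188 and −0.116, and no library correlated best with its own number. With 3 libraries per group and replicate 1 apart in each, these values cannot settle whether the samples were paired. With the replicate block 475 genes were called higher and 320 lower, and 0 of the 9 higher and 5 lower. XCP1 had 51 to 99 estimated counts per library, the fewest of the 9 genes.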
